A study of Mus musculus with 15 samples.

Results

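The 10 genes described here encode proteins with which a cell takes up dying neighbours: the receptors Axl, Mertk, Tyro3, Timd4 and Lrp1, the bridging proteins Gas6, Pros1 and Mfge8, and the adaptors Elmo1 and Dock1. They were chosen by gene symbol, as 10 of the 17030 genes in the expression table, and each symbol was found in it. Of the 10, 8 reached the level at which a gene was tested, which was 1 FPKM (fragments scaled by transcript length and library total) in at least 3 of the 15 libraries. Gas6 and Timd4 did not.

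The study sequenced messenger RNA of mouse cells, with bone marrow as the labelled tissue, in 5 groups of 3 libraries. Its title concerns macrophages with a chimeric antigen receptor (CAR, an engineered receptor that binds a chosen antigen) made from myeloid progenitors for colorectal cancer. CAR macrophages were labelled with the genotype CAR expression and as CAR treated. Control-CAR macrophages carried the corresponding control labels. Hoxb8 macrophages, BMDM (bone marrow-derived macrophages) and progenitor cells were wild type and untreated. Hoxb8 is a homeobox factor used to keep myeloid progenitors dividing in culture. Which cells the CAR and control-CAR macrophages were grown from, and what their treatment consisted of, is not stated in the labels, and age and sex are not given. Whether the 3 libraries of a group stem from different cultures or mice is not labelled, so the p-values cover only the spread between these libraries, and that spread may be technical. In bulk RNA, fewer cells with a transcript and less of it per cell cannot be told apart.

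Uptake of dying cells, or efferocytosis, starts when a phagocyte recognises phosphatidylserine, a lipid that a dying cell turns to its outer surface. Tim-4, the product of Timd4, binds the lipid directly, whereas the TAM receptor kinases Tyro3, Axl and Mertk bind it through vitamin K-dependent bridges. Gas6 serves all of them, and protein S, the product of Pros1, serves Tyro3 and Mertk. Mfge8 links the lipid to integrins with an alpha v chain, and Lrp1 is a large endocytic receptor that takes up calreticulin-bearing particles among many other ligands. Downstream, Elmo1 and Dock1 form an exchange factor for the GTPase Rac1, which drives the membrane around the corpse.

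Library totals ran from 16962839 to 19221681 estimated counts. The macrophage marker Adgre1, which encodes F4/80, was at 811 ± 9.96 FPKM in CAR macrophages, 1131 ± 37.2 in control-CAR macrophages, 1070 ± 56.0 in Hoxb8 macrophages, 1213 ± 193 in BMDM and 0.49 ± 0.0693 in progenitor cells (SD, n = 3 each), and the progenitor marker Kit was at 113 ± 1.31 FPKM in progenitor cells and under 5 FPKM in the mean of each macrophage group. Over whole marker lists the macrophage groups differed more. The summed FPKM of 10 macrophage markers was 2445 to 2509 in CAR macrophages, 7178 to 7783 in control-CAR macrophages, 7452 to 8167 in Hoxb8 macrophages, 9667 to 10617 in BMDM and 187 to 205 in progenitor cells. Of the 10, 0 were called higher and 8 lower in CAR than in control-CAR macrophages (median log2 change -1.23), and 1 higher and 9 lower against BMDM (-3.50). Of all tested genes, 41.9% were called higher and 36.8% lower against control-CAR macrophages, and 39.2% and 37.8% against BMDM. The marker calls below are read beside these shares too. The summed FPKM of 10 myeloid progenitor markers was 167 to 183 in CAR macrophages, 24.44 to 25.01 in control-CAR macrophages, 21.5 to 22.7 in Hoxb8 macrophages, 179 to 308 in BMDM and 2941 to 2998 in progenitor cells. Of these 10, 5 were called higher and 1 lower in CAR than in control-CAR macrophages (median 0.89), and the calls higher lay near the share over all tested genes (41.9%). The macrophage marker C1qa was under 1 FPKM in each library outside BMDM. Marker lists of other cell types also differed between groups. The summed FPKM of 9 mast cell and basophil markers was 3748 to 3984 in CAR macrophages, 437 to 477 in control-CAR macrophages, 424 to 426 in Hoxb8 macrophages, 427 to 497 in BMDM and 1562 to 1682 in progenitor cells. At least 1 FPKM in all 3 libraries was reached by 8 of these 9 markers in CAR and 5 in control-CAR macrophages, where Mcpt4 had a count of 0. The summed FPKM of 9 fibroblast markers was 52.6 to 53.8 in CAR macrophages, 17.4 to 20.6 in control-CAR macrophages, 17.3 to 19.3 in Hoxb8 macrophages, 59.6 to 85.2 in BMDM and 23.3 to 24.8 in progenitor cells, and Sparc among them had no counts in control-CAR macrophages or progenitor cells. The summed FPKM of 8 epithelial and tumour cell markers was 9.51 to 9.65 in CAR macrophages, 0.49 to 0.93 in control-CAR macrophages and 20.7 to 25.2 in BMDM. Of the 4 tested among them, 3 were called higher and 0 lower in CAR than in control-CAR macrophages (median log2 change 5.53). At least 1 FPKM in all 3 libraries was reached by 3 of the 8 in CAR and 0 in control-CAR macrophages. Epcam itself was at 0.02 ± 0.0173 FPKM in CAR macrophages and was not counted in control-CAR macrophages. BMDM had the highest sums of neutrophil markers (6143 to 12480, against at most 2171 elsewhere) and of T and B cell markers (18.9 to 36.1, against at most 0.30 elsewhere). The part of these markers' cells in the results below was not tested.

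Axl, Pros1 and Dock1 shared a pattern among the 10: a count of 0 in each control-CAR library, 0 to 2 counts in each Hoxb8 library, and a clear level in CAR macrophages and BMDM. The 250 bases before an annotated start of each of these genes (RefSeq, build GRCm38.p6) are shown for that reason, 5′ to 3′ on the gene's strand. Axl is shown at chr7:25788734-25788983 on the minus strand. Pros1 is shown at chr16:62854057-62854306 and Dock1 at chr7:134670437-134670686, both on the plus strand. Capitals mark matches, on either strand, to the motifs searched.
Axl: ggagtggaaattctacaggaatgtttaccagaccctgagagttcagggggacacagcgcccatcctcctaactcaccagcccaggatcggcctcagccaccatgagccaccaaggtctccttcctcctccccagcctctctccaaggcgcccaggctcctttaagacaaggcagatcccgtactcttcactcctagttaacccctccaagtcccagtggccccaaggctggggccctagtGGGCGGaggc
Pros1: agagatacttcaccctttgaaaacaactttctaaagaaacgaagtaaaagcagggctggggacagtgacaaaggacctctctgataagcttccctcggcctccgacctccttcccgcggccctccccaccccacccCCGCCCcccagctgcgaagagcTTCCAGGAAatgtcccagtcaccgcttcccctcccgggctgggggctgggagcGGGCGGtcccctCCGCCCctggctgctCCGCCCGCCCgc
Dock1: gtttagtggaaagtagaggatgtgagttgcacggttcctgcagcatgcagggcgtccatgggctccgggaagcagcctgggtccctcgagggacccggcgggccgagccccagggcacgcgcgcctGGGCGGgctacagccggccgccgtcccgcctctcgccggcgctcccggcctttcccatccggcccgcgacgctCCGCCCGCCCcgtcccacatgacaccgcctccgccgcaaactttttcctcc
The motifs searched were the GC box GGGCGG, the STAT motif (GAS) TTCNNNGAA, the core of the interferon-stimulated response element, the AP-1 motif TGANTCA, the PU.1 motif GAGGAAGT, the CCAAT box CCAAT and the TATA box TATAAA. A GC box was found once in the Axl window, 5 times in that of Pros1 and 3 times in that of Dock1, overlapping matches included, and 32.7% of all 32851 mouse windows of this length hold at least 1. The Pros1 window also held 1 STAT motif, present in 7.02% of all windows. The interferon, AP-1, PU.1, CCAAT and TATA letters, present in 2.98%, 6.75%, 2.44%, 33.8% and 12.4% of all windows, were in none of the 3. CpG dinucleotides numbered 5, 15 and 29 in the Axl, Pros1 and Dock1 windows, with a median of 6 over all windows. All 10 genes had a window in this table. The annotated span of Axl runs to 25788924, inside its window. Most of the Axl window, with its GC box, thus lies within that span and may be transcribed.

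**Figure D1:**
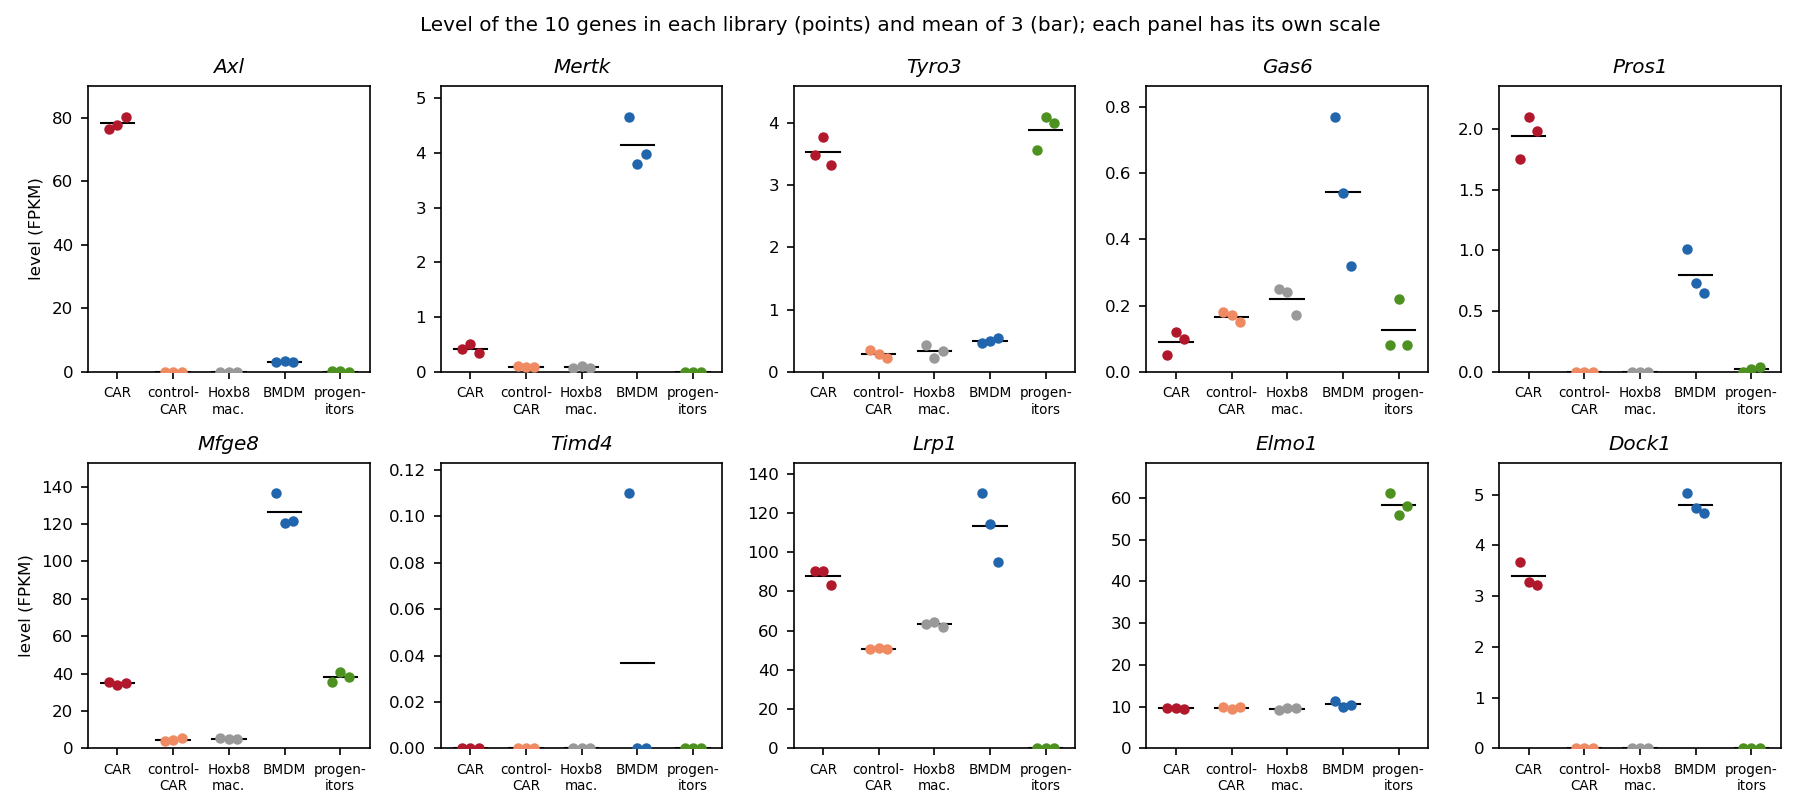
Level of each of the 10 genes in FPKM (vertical axis, a scale of its own in each panel) in the 15 libraries (points) with the mean of 3 libraries (bars), for CAR macrophages, control-CAR macrophages, Hoxb8 macrophages, BMDM and progenitor cells. Axl stands at 76.5 to 80.3 FPKM in CAR macrophages, above every other library, while Mertk, Mfge8, Lrp1 and Dock1 reach their highest means in BMDM and Tyro3 and Elmo1 in progenitor cells.

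Axl, the TAM receptor that responds to Gas6, was at 76.5, 77.7 and 80.3 FPKM in the 3 CAR libraries and had a count of 0 in all 3 control-CAR libraries. The groups did not overlap, and Axl in CAR macrophages ranked above 92.9% of the genes in the table by level. Counted against a floor of 3 counts per library, Axl was at least 1440-fold higher in CAR than in control-CAR macrophages (quasi-likelihood test of edgeR, Benjamini-Hochberg adjustment over 11793 genes, adjusted p = 4.0e-19). BMDM held 3.13, 3.35 and 3.10 FPKM, so that CAR macrophages lay above this group as well, with a log2 change of 4.39 (SE 0.07, adjusted p = 8.9e-18 by the same test). In Hoxb8 macrophages Axl had 2, 2 and 1 counts, or 0.02 to 0.03 FPKM, and in progenitor cells 7, 7 and 4 counts. Hoxb8 macrophages were thus lower than BMDM (log2 change -6.84, SE 0.20, edgeR adjusted p = 2.1e-14), whereas against progenitor cells Axl did not pass the edgeR test (0.49 times, 95% counting interval 0.14 to 1.37, adjusted p = 0.153). Under library totals it was called lower (log2 change -1.78, edgeR adjusted p = 0.0060). It was also called lower by limma on log2(FPKM + 0.1) (adjusted p = 1.5e-04), under TPM (0.0201) and after quantile normalisation (1.6e-05). BMDM exceeded progenitor cells 59.5-fold (counting interval 37.4 to 101, edgeR adjusted p = 5.0e-16). These intervals, here and below, are exact and cover counting error only.

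Mertk, the TAM receptor of resident and resolving macrophages, was highest in BMDM instead. It was at 0.41, 0.51 and 0.35 FPKM in CAR macrophages, 0.10, 0.09 and 0.08 in control-CAR macrophages, 0.07, 0.11 and 0.07 in Hoxb8 macrophages and 4.66, 3.80 and 3.98 in BMDM, with a count of 0 in the progenitor libraries. The CAR libraries lay between the BMDM libraries and the other groups, without overlap. Mertk was 3.75-fold higher in CAR than in control-CAR macrophages (counting interval 2.30 to 6.41, log2 change 1.89, SE 0.29, edgeR adjusted p = 2.0e-05), on 96 counts against 20, and the direction turned after quantile normalisation (-0.20). Against BMDM it was lower in CAR macrophages, with a log2 change of -3.47 (SE 0.15, adjusted p = 4.2e-12), and lower in Hoxb8 macrophages, with a log2 change of -5.49 (SE 0.21, adjusted p = 7.1e-13, both from edgeR). Against progenitor cells, Mertk was at least 161-fold higher in BMDM and at least 3.52-fold higher in Hoxb8 macrophages. The Hoxb8 call rested on 18 counts and did not pass limma on log2(FPKM + 1) (adjusted p = 0.0830).

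Tyro3, the third TAM receptor and the one best known from the nervous system, had a different order. It was at 3.49, 3.78 and 3.32 FPKM in CAR macrophages and 3.56, 4.10 and 3.99 in progenitor cells, ranges that overlapped. Control-CAR macrophages were at 0.35, 0.28 and 0.23 FPKM, Hoxb8 macrophages at 0.43, 0.22 and 0.33, and BMDM at 0.46, 0.49 and 0.54. Tyro3 was therefore low in the 3 other macrophage groups. In CAR macrophages it was higher than in control-CAR macrophages by a log2 change of 3.34 (SE 0.17, edgeR adjusted p = 1.9e-12), and higher than in BMDM by 2.65 (SE 0.15, adjusted p = 1.2e-11). BMDM were lower than progenitor cells by a log2 change of -2.32 (SE 0.15) and Hoxb8 macrophages by -2.71 (SE 0.16), with edgeR adjusted p-values of 2.8e-11 and 1.1e-11. Between Hoxb8 macrophages and BMDM the change of -0.39 (SE 0.21) did not pass (edgeR adjusted p = 0.113), although it was called at -0.65 without Hoxb8 replicate 1 and at -0.56 under library totals (adjusted p = 0.0267 in both), and after quantile normalisation it turned to 0.32.

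The make-up of the TAM trio is given as shares of summed FPKM. Since FPKM is scaled by transcript length, the 3 levels can be set side by side. Axl held 95.2% ± 0.433 of the summed FPKM of the trio in CAR macrophages (SD, n = 3), where the sum was 82.1 ± 1.79 FPKM. The sum was 0.377 ± 0.0702 FPKM in control-CAR macrophages and 0.437 ± 0.0862 in Hoxb8 macrophages, and Tyro3 held 75.9% ± 1.80 and 73.6% ± 10.9 of it, shares that overlapped over libraries. In BMDM, with a sum of 7.84 ± 0.358 FPKM, Mertk held 52.8% ± 3.41 and Axl 40.8% ± 2.96. In progenitor cells Tyro3 alone held 97.6% ± 0.788 of 3.98 ± 0.277 FPKM. The BMDM shares of Mertk and Axl did not overlap over libraries.

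**Figure D2:**
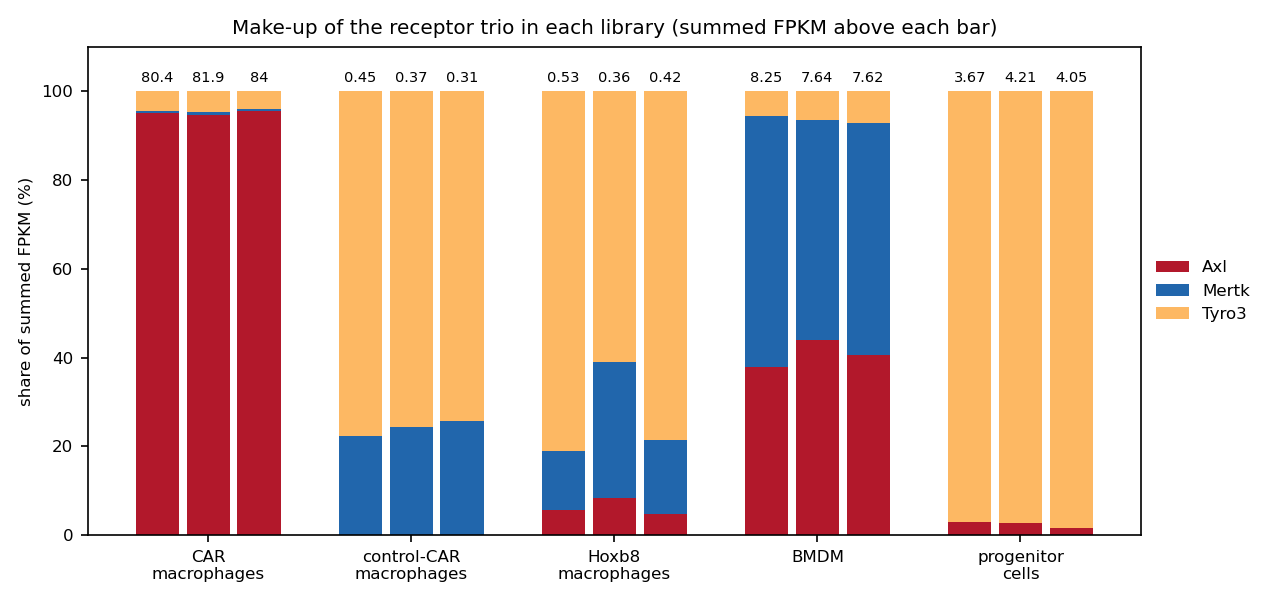
Share of the summed FPKM of Axl, Mertk and Tyro3 held by each gene (vertical axis, percent) in each of the 15 libraries, ordered by group, with the summed FPKM above each bar. Axl fills 95.2% ± 0.433 of the CAR bars (SD, n = 3), Mertk is the largest share in BMDM, and Tyro3 is the largest in control-CAR macrophages, Hoxb8 macrophages and progenitor cells.

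Lrp1 was the member with the highest level in CAR, control-CAR and Hoxb8 macrophages. It was at 90.2, 90.2 and 83.2 FPKM in CAR macrophages, 50.7, 51.2 and 50.7 in control-CAR macrophages, 63.5, 64.2 and 62.0 in Hoxb8 macrophages and 130, 114 and 95.2 in BMDM, but only 0.08, 0.06 and 0.07 in progenitor cells. No 2 groups overlapped. BMDM exceeded progenitor cells 2519-fold (counting interval 1935 to 3345, edgeR adjusted p = 1.2e-20) and Hoxb8 macrophages exceeded them 1581-fold (1214 to 2099, adjusted p = 2.7e-20). Differences among macrophages were small beside that. The log2 change was 0.48 (SE 0.09) for CAR against control-CAR macrophages, -0.55 (SE 0.09) for CAR macrophages against BMDM and -0.68 (SE 0.09) for Hoxb8 macrophages against BMDM, each called by edgeR (adjusted p = 1.1e-04, 2.7e-05 and 2.9e-06). Control-CAR macrophages were lower than Hoxb8 macrophages by -0.35 (SE 0.09, adjusted p = 0.0486). That call was lost without any 1 of the 6 libraries of the 2 groups (adjusted p from 0.0654 to 0.142).

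Timd4 was close to absent from these libraries. It had a count of 0 in 14 libraries and 4 counts, or 0.11 FPKM, in BMDM replicate 1. A count of 0 allows up to 3 counts per library, which is 0.114 to 0.208 CPM (counts scaled to library size) over the 15 libraries, so a low level of this receptor of resident macrophages was not detectable at this depth.

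Of the bridging proteins, Mfge8 dominated by level. It was at 35.6, 34.0 and 34.9 FPKM in CAR macrophages, 4.13, 4.67 and 5.35 in control-CAR macrophages, 5.72, 4.89 and 5.10 in Hoxb8 macrophages, 137, 120 and 122 in BMDM and 35.3, 40.9 and 38.0 in progenitor cells. The order ran from BMDM through CAR macrophages and progenitor cells, whose ranges overlapped, to Hoxb8 and control-CAR macrophages, whose ranges also overlapped. Mfge8 was higher in CAR than in control-CAR macrophages by a log2 change of 2.54 (SE 0.10, edgeR adjusted p = 8.9e-14) and lower in CAR macrophages than in BMDM by -2.08 (SE 0.08, adjusted p = 9.6e-14). Against the same progenitor libraries it was higher in BMDM, with a log2 change of 2.43 (SE 0.08, adjusted p = 2.0e-15), and lower in Hoxb8 macrophages, with a log2 change of -1.99 (SE 0.10, adjusted p = 8.8e-13). The direct difference between Hoxb8 macrophages and BMDM was -4.42 (SE 0.10, adjusted p = 5.5e-17, all from edgeR's quasi-likelihood test).

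Pros1, which encodes the anticoagulant and TAM ligand protein S, was at 1.75, 2.10 and 1.98 FPKM in CAR macrophages and at 1.01, 0.73 and 0.65 FPKM in BMDM. It had a count of 0 in all 6 control-CAR and Hoxb8 libraries and 0, 1 and 2 counts in progenitor cells. CAR macrophages thus lay above every other group, at least 27.6-fold above control-CAR macrophages (edgeR adjusted p = 2.3e-09) and 1.11 on the log2 scale above BMDM (SE 0.20, adjusted p = 1.8e-04). Hoxb8 macrophages were at least 12.5-fold lower than BMDM (adjusted p = 1.5e-07). BMDM exceeded progenitor cells 66.2-fold, with a wide counting interval of 22.2 to 325 (adjusted p = 1.4e-08), a call lost after quantile normalisation (adjusted p = 0.162).

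Gas6, the ligand of all 3 TAM receptors, was scarce in every group and was not tested under the level filter. It had 2, 5 and 4 counts in CAR macrophages, 7, 7 and 6 in control-CAR macrophages, 10, 10 and 7 in Hoxb8 macrophages, 34, 23 and 14 in BMDM and 3, 9 and 3 in progenitor cells, and no library passed 0.77 FPKM. In scaled counts, CAR macrophages had 0.14 times the level of BMDM (counting interval 0.068 to 0.27) and 0.43 times that of control-CAR macrophages (0.19 to 0.94). With no level filter, edgeR called the difference from BMDM (adjusted p = 8.9e-06) and not that from control-CAR macrophages (adjusted p = 0.0727). The CAR libraries, with the highest Axl, had the fewest Gas6 counts of the macrophage groups. Of the exon bases of Gas6, 34 overlap Tmem255b on the other strand, a gene not in the table.

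The adaptors Elmo1 and Dock1, partners in one exchange factor, did not vary together. Dock1, its catalytic subunit, was at 3.68, 3.28 and 3.22 FPKM in CAR macrophages and 5.03, 4.74 and 4.63 FPKM in BMDM, with a count of 0 in all 9 libraries of control-CAR macrophages, Hoxb8 macrophages and progenitor cells. It was at least 105-fold higher in CAR than in control-CAR macrophages (edgeR adjusted p = 6.9e-12), at least 165-fold lower in Hoxb8 macrophages than in BMDM (3.0e-12) and at least 292-fold higher in BMDM than in progenitor cells (1.5e-13). CAR macrophages were lower than BMDM by a log2 change of -0.68 (SE 0.09, adjusted p = 2.4e-05).

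Elmo1, the regulatory subunit, was present throughout. It was at 9.66, 9.76 and 9.50 FPKM in CAR macrophages, 9.94, 9.36 and 9.97 in control-CAR macrophages, 9.27, 9.62 and 9.59 in Hoxb8 macrophages, 11.4, 9.83 and 10.5 in BMDM and 61.2, 56.0 and 58.1 in progenitor cells. Progenitor cells stood apart, and the macrophage groups lay within 9.27 to 11.4 FPKM. Elmo1 was lower than in progenitor cells by a log2 change of -1.82 in BMDM and -1.81 in Hoxb8 macrophages (SE 0.06 each, edgeR adjusted p = 1.1e-15 and 1.4e-15). The CAR to control-CAR change of -0.33 (SE 0.06, adjusted p = 1.3e-04) depended on the scaling, with FPKM ranges that overlapped, -0.020 and no call under library totals and 0.21 under TPM. The change of -0.32 (SE 0.06, adjusted p = 1.9e-04) between CAR macrophages and BMDM was lost under FPKM (adjusted p = 0.0592) and TPM (0.477). Between Hoxb8 macrophages and BMDM the change was 0.011 (SE 0.06, adjusted p = 0.885) and took either sign with the scaling, with a call lower in Hoxb8 macrophages under library totals (adjusted p = 0.0209), log2(FPKM + 1) (0.0337), log2(FPKM + 0.1) (0.0301) and TPM (4.4e-04). Of the exon bases of Elmo1, 403 overlap the antisense transcript Gm32036, and the strand setting of the counting is not given in the sources used here.

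**Figure D3:**
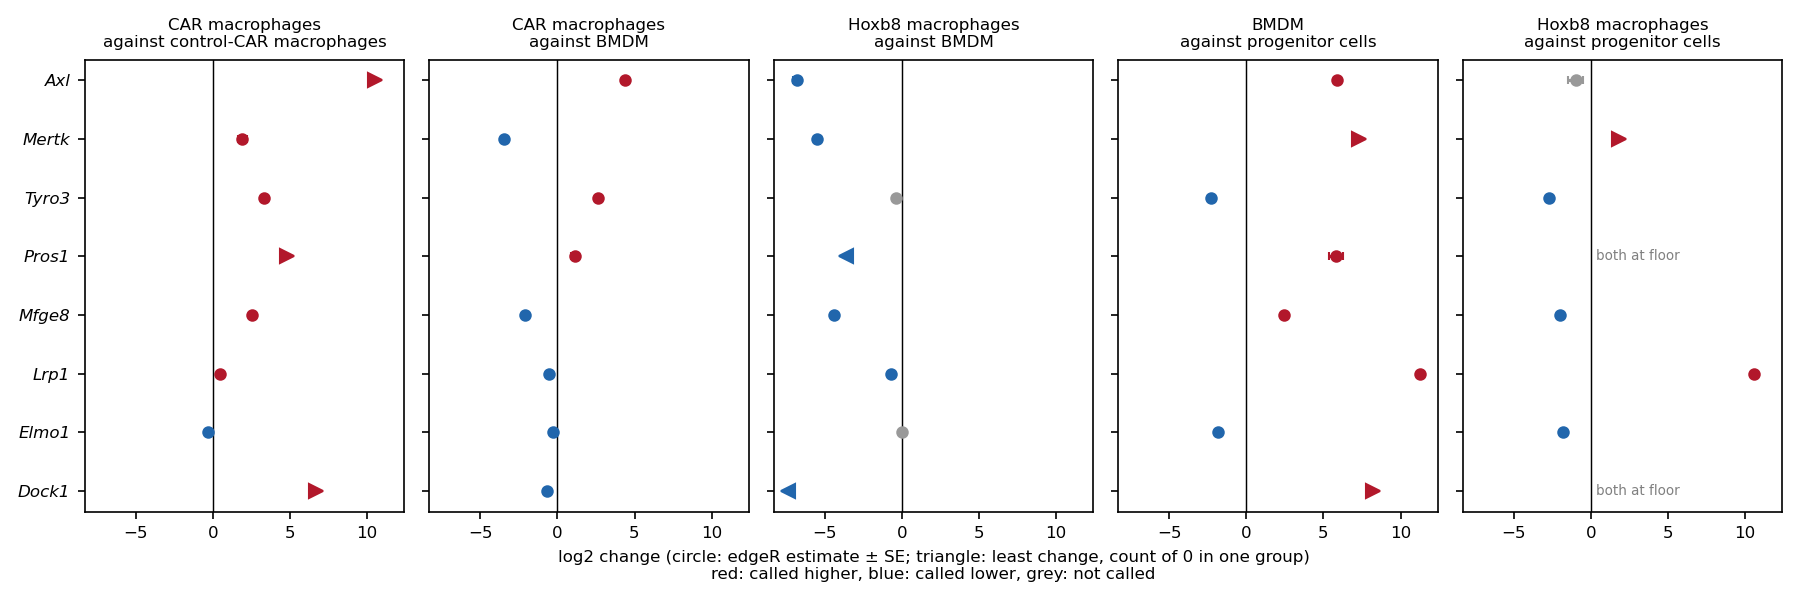
Log2 change (horizontal axis) of the 8 tested members (rows) in 5 comparisons (panels), as edgeR estimates ± SE (circles) or, where 1 group had a count of 0 in each library, as the least change that a floor of 3 counts per library allows (triangles). Red marks a call higher, blue a call lower and grey no call. Of the 8, 7 lie to the right for CAR against control-CAR macrophages, while the small shift of Elmo1 to the left turns under TPM (0.21) and that of Mertk to the right turns after quantile normalisation (-0.20).

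Counted over the members, 7 of the 8 tested genes were called higher and 1, Elmo1, lower in CAR than in control-CAR macrophages. The background was wide, since 78.7% of all 11793 tested genes were called, 41.9% higher and 36.8% lower. That split was 6722 higher and 2770 lower under library totals, 8018 and 1933 under TPM, and 4212 and 5306 after quantile normalisation, against 4946 and 4334 with TMM scaling. Against BMDM, 3 members (Axl, Tyro3 and Pros1) were called higher and 5 lower in CAR macrophages, where 76.9% of all genes were called (39.2% higher and 37.8% lower), a split of 4618 and 4455 that was 5800 and 3422 under library totals and 6425 and 3017 under TPM. In BMDM against progenitor cells 6 were called higher and 2 (Tyro3 and Elmo1) lower, with 87.3% of all genes called, 46.6% higher and 40.7% lower (5497 higher and 4797 lower, but 3762 and 6959 under library totals). In Hoxb8 macrophages against the same progenitor libraries 2 (Mertk and Lrp1) were called higher and 3 (Tyro3, Mfge8 and Elmo1) lower, with 84.3% of all genes called, 44.7% higher and 39.6% lower (5269 higher and 4673 lower, but 3123 and 7195 under library totals). In Hoxb8 macrophages against BMDM 0 were called higher and 6 lower, with 70.3% of all genes called, 32% higher and 38.3% lower (3776 higher and 4516 lower, but 2628 and 5865 under library totals and 4869 and 3609 after quantile normalisation). Tyro3 and Elmo1 were the members not called there. Under library totals, both FPKM scales and TPM all 8 were called lower, whereas limma after quantile normalisation called Tyro3 higher. In control-CAR against Hoxb8 macrophages Lrp1 alone was called, where 2.62% of all genes were, 0.721% higher and 1.9% lower (85 higher and 224 lower, but 278 and 192 under library totals). The comparisons share libraries, so their calls are not independent of each other. That 8 genes passed the filter rests in part on the groups in which they were high.

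Genes with the pattern closest to each member were found by the root mean square difference over the 15 libraries on the log2(FPKM + 1) scale, each gene centred on its own mean, among tested genes and for members whose 5 group means spanned at least 2. For Axl they were Fcer1a (0.18), Gzmb (0.32) and Serpinh1 (0.43), which encode a chain of the IgE receptor, granzyme B and a collagen chaperone. Fcer1a, a mast cell and basophil marker, was at 97.3 FPKM in CAR macrophages, 0.027 in control-CAR macrophages, 0.027 in Hoxb8 macrophages, 4.0 in BMDM and 0 in progenitor cells. For Dock1 the closest were Rgmb (0.051), Ido2 (0.087) and Rbbp9 (0.090), and Rgmb was at 3.59 FPKM in CAR macrophages, 4.78 in BMDM and 0 in the other groups. Lrp1 was closest to F10, which encodes coagulation factor X (0.20), Tlr2 (0.32) and C3ar1 (0.32). Mertk was closest to Ciita, the transactivator of MHC class II genes (0.11), Tmem51 (0.12) and Edil3 (0.12). Elmo1 was closest to Nwd1 (0.064), Slc43a1 (0.075) and Ankrd13a (0.080). Nwd1 was at 0.0033 to 0.017 FPKM and Slc43a1 at 0.03 to 0.20 in the means of the macrophage groups, and at 4.45 and 5.01 in progenitor cells. With 1 FPKM added before the log, a close distance to such low genes can join unlike fold changes. Mfge8 was closest to Grasp (0.73), Csrp2 (0.78) and Cdkn3 (0.81), the widest distances of the 6. Tyro3 and Pros1 spanned less than 2.

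Other genes of the uptake pathway were taken from 8 lists that hold none of the 10 members. In the list of 20 further dying cell receptors, 4 of 17 tested genes were called higher and 9 lower against control-CAR macrophages. The median log2 change was -0.32, against 0.064 over all genes. Of all tested genes, 41.9% were called higher and 36.8% lower in that comparison. Itgb3, the integrin beta 3 chain that can pair with alpha v to bind Mfge8, was at 25.9 ± 0.757 FPKM in CAR macrophages and 123 ± 12.2 in control-CAR macrophages (log2 change -2.56, SE 0.08). Itgav, the alpha v chain, named here as its partner and outside the naming rule, was at 15.5 ± 0.962 and 41.5 ± 1.78 FPKM (log2 change -1.72, SE 0.06). Itgb3 and Itgav thus fell where Mfge8 rose. Itgb5, the beta 5 chain in the same list and also outside the naming rule, did not fall in mean FPKM (22.5 against 19.9, without TMM scaling). Cd300lf, a lipid-binding receptor, and Scarb1, a scavenger receptor, were called lower, with log2 changes of -1.78 (SE 0.07) and -1.76 (SE 0.14). Megf10, an engulfment receptor known from astrocytes, was at 0.113 ± 0.0231 against 0.0167 ± 0.00577 FPKM (log2 change 2.71, SE 0.41), a rise that turned after quantile normalisation (-0.16). For the genes given with a log2 change, edgeR adjusted p-values ran from 5.2e-15 (Itgb3) to 9.4e-06 (Megf10).

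Among 10 tested bridging and tether genes of the lists, 3 were called higher and 1 lower in CAR than in control-CAR macrophages (median log2 change 1.29). Lgals3, which encodes galectin 3, was at 1124 ± 39.9 against 221 ± 13.9 FPKM (log2 change 2.05, SE 0.09), and Thbs1, the thrombospondin that bridges to Cd36 and integrins, at 3800 ± 94.2 against 1626 ± 58.4 FPKM (log2 change 0.92, SE 0.08). Edil3, a relative of Mfge8, was at 0.14 ± 0.0265 FPKM against a count of 0, at least 3.30-fold higher, with a sign that turned after quantile normalisation (-0.0047). Calr, which encodes the Lrp1 ligand calreticulin, was called lower at -0.22 (SE 0.08, edgeR adjusted p = 0.0157), a call lost without control-CAR replicate 2 (adjusted p = 0.108), and its sign turned under library totals, FPKM, TPM and quantile normalisation.

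In engulfment signalling 4 of 18 tested genes were called higher and 12 lower. The median of -0.35 was smaller in size than the shift of 0.45 in the median of all genes under TPM. Ptk2, the focal adhesion kinase, was at 15.7 ± 0.612 FPKM in CAR macrophages and 0.14 ± 0.0624 in control-CAR macrophages (log2 change 6.39, SE 0.19, edgeR adjusted p = 9.4e-16). Rac2, the blood cell Rac GTPase, Vav3, a Rac exchange factor, and Dock5, a relative of Dock1, were all called lower, at log2 changes of -1.44 (SE 0.07), -1.07 (SE 0.06) and -1.52 (SE 0.05). The count of 0 in control-CAR macrophages held for Dock1 and not for its relatives Dock2, Dock4 and Dock5. Dock2, the main member of the family in blood cells, was at 21.5 ± 0.295 FPKM in CAR macrophages, 30.3 ± 1.34 in control-CAR macrophages, 28.6 ± 1.28 in Hoxb8 macrophages, 28.1 ± 2.79 in BMDM and 76.1 ± 1.09 in progenitor cells. Elmo2 was at 17.3 to 31.3 FPKM in the means of the 5 groups. Dock2 and Elmo2 are named as relatives of members and outside the naming rule.

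**Figure D4:**
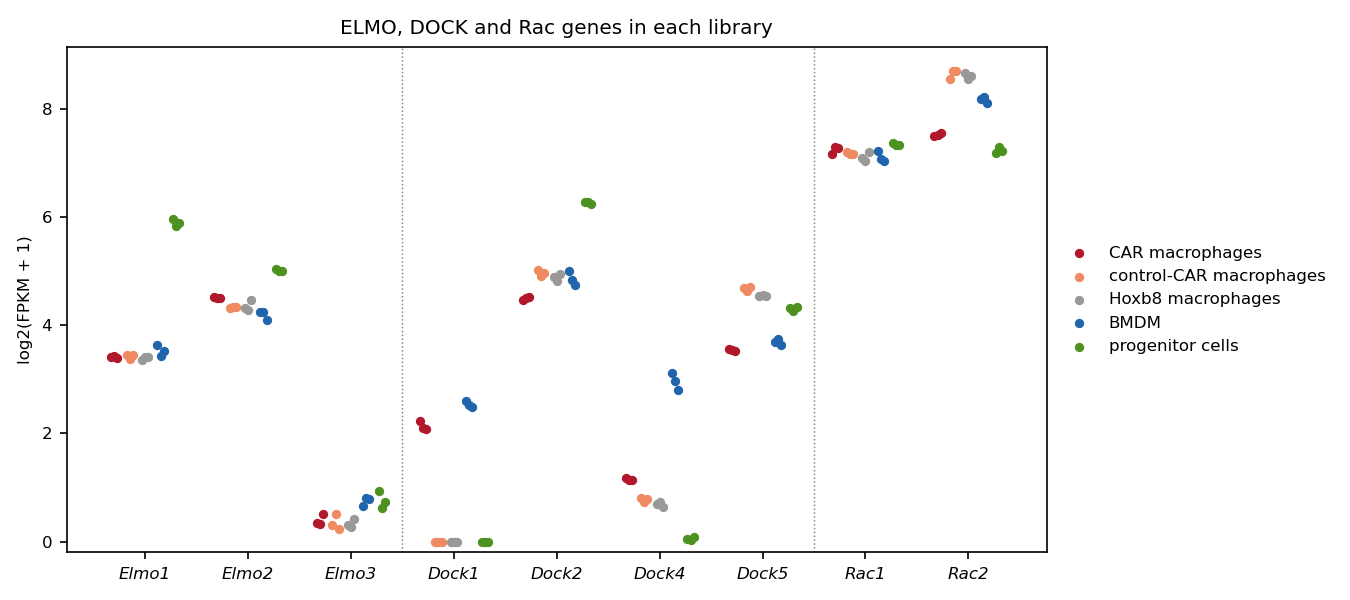
Level of ELMO, DOCK and Rac genes as log2(FPKM + 1) (vertical axis) in each library (points), coloured by group, with dotted lines between families. Dock1 is at 0 in the control-CAR, Hoxb8 and progenitor libraries, where Dock2 and Dock5 are at several FPKM or more, and Elmo1 and Dock2 are highest in progenitor cells.

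The remaining lists are read beside the 41.9% of all tested genes called higher and 36.8% called lower in CAR against control-CAR macrophages, and their medians beside a shift of 0.31 in the median of all genes under library totals. That shift is as large as, or larger than, the size of the medians for find me receptors (-0.31), corpse processing (-0.20) and shedding and chaperones (-0.097). Under TPM the shift is 0.45, which also exceeds the size of the medians for further receptors (-0.32), engulfment signalling (-0.35) and do not eat me signalling (-0.43). Of 9 tested genes of do not eat me signalling, which restrains phagocytes, 0 were called higher and 7 lower (median -0.43), among them the receptor gene Sirpa (303 ± 0.871 against 499 ± 18.6 FPKM, log2 change -1.03, SE 0.07), its phosphatase gene Ptpn6 (log2 change -1.10, SE 0.06) and the inhibitory receptor genes Lilrb4a (-0.90, SE 0.06) and Pirb (-0.43, SE 0.05, but 0.11 under TPM). Of 8 receptors for find me signals, 2 were called higher, S1pr1 (log2 change 2.38, SE 0.14) and Fpr2 (1.69, SE 0.07), and 4 lower, among them the fractalkine receptor Cx3cr1 (-2.35, SE 0.24) and P2ry2 (-0.96, SE 0.08). Of 18 corpse processing genes 4 were called higher, with the lysosomal nuclease gene Dnase2a at 0.70 (SE 0.08), and 10 lower, with the oxidase subunit gene Cybb at -1.21 (SE 0.10), Lipa, the lysosomal acid lipase, at -0.86 (SE 0.07) and Ucp2 at -0.75 (SE 0.09).

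Of 12 nuclear receptor and cholesterol efflux genes, 1 was called higher and 7 lower, and this list had the lowest median log2 change of the 8 (-0.87). Pparg, a lipid-sensing nuclear receptor, was at 0.163 ± 0.0839 FPKM in CAR macrophages and 8.64 ± 0.466 in control-CAR macrophages (log2 change -5.89, SE 0.22, edgeR adjusted p = 2.8e-13). The cholesterol exporter gene Abcg1 fell with a log2 change of -2.04 (SE 0.07), the factor gene Maf with -1.76 (SE 0.13) and the transglutaminase gene Tgm2 with -1.70 (SE 0.06). Of 7 genes for receptor shedding and chaperones, Timp3, an inhibitor of sheddases, was at 1.48 ± 0.10 FPKM against a count of 0 and at least 30.8-fold higher. Adam17 and Adam10, proteases that cleave Mertk and Axl from the surface, were called lower, at -0.73 and -0.59 on the log2 scale (SE 0.05 each), the call for Adam10 being lost under TPM, and Lrpap1, the chaperone of Lrp1, at -0.86 (SE 0.07). The ratio of Lrp1 to Lrpap1 in FPKM was 0.235 ± 0.00487 in CAR macrophages and 0.0931 ± 0.00614 in control-CAR macrophages, with no overlap over libraries. In BMDM the ratio was 0.260 ± 0.0457, with libraries that overlapped those of CAR macrophages, and in Hoxb8 macrophages it was 0.104 ± 0.00535.

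**Figure D5:**
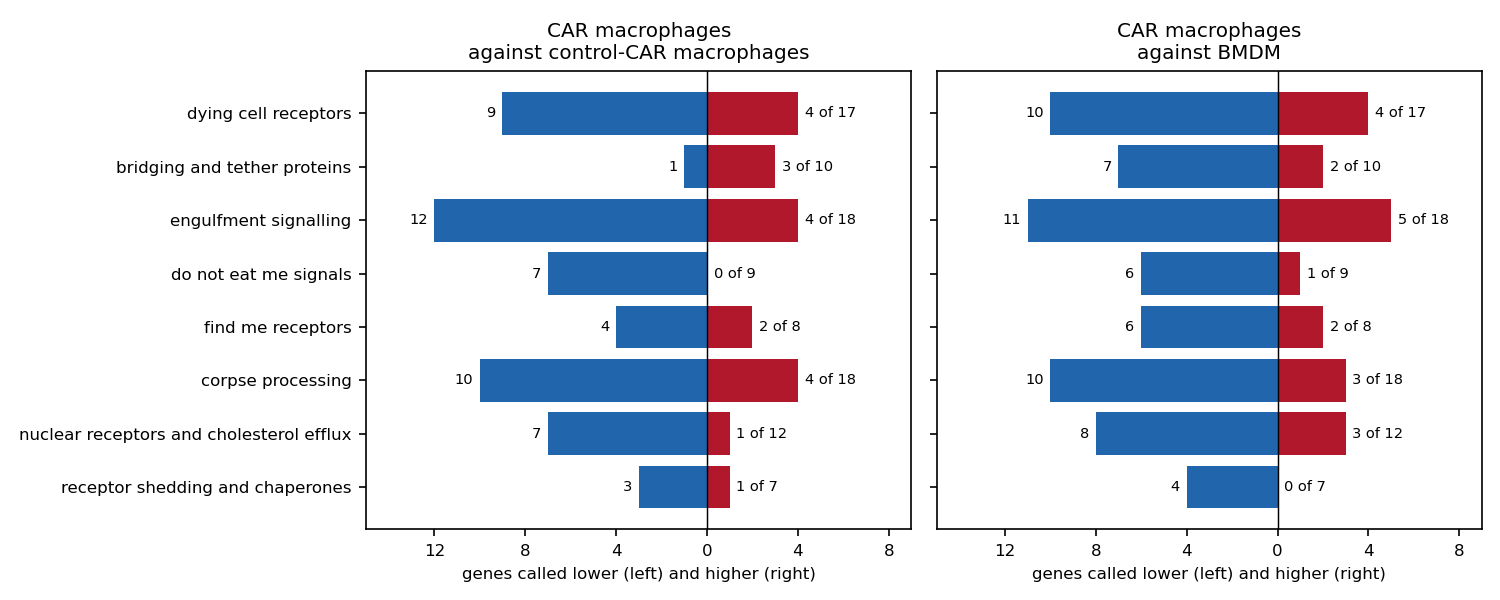
Number of genes called higher (red, right, with the number tested) and lower (blue, left) by edgeR in each of 8 lists of uptake genes other than the 10 members, for CAR against control-CAR macrophages and for CAR macrophages against BMDM. The calls lower outnumber the calls higher in every list of both panels except the bridging list against control-CAR macrophages (3 higher, 1 lower). Of all tested genes, 41.9% were called higher and 36.8% lower against control-CAR macrophages, and 39.2% and 37.8% against BMDM. Under library totals these splits moved to 6722 higher and 2770 lower, and to 5800 and 3422, so the balance depends on the scaling.

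Set against BMDM, the bridging list had the lowest median of the 8 lists in CAR macrophages. In it 2 of 10 tested genes were called higher and 7 lower (median log2 change -2.77, against 0.023 over all genes). Of all tested genes, 39.2% were called higher and 37.8% lower against BMDM, a split that moved with the scaling. The complement genes C1qa, C1qb and C1qc were at 0.0233 ± 0.0404, 0.41 ± 0.176 and 0.32 ± 0.0781 FPKM in CAR macrophages, and at 19.4 ± 5.07, 63.1 ± 14.6 and 50.7 ± 13 FPKM in BMDM. The pentraxin gene Ptx3 was at 0.02 ± 0.0173 against 15.4 ± 1.20 FPKM. All 4 fell, with edgeR adjusted p-values from 1.6e-13 for C1qb to 2.1e-09 for C1qa. Of the further receptors 4 of 17 were called higher and 10 lower (median -0.47), and the scavenger receptor gene Olr1, named outside the naming rule after its values were seen, was among the higher ones (log2 change 1.79, SE 0.13). The receptor gene Scarf1, which binds C1q, was at 0.0667 ± 0.0231 against 19.0 ± 0.987 FPKM, Stab1 at 2.31 ± 0.07 against 21.6 ± 6.57, Cd36 at 1.33 ± 0.178 against 6.66 ± 0.869 and Msr1 at 49.6 ± 0.367 against 215 ± 11.1, each called lower.

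In engulfment signalling 5 of 18 were called higher and 11 lower against BMDM. Ptk2 was higher by a log2 change of 3.22 (SE 0.13) and Bcar1, the p130Cas scaffold upstream of Dock1, by 2.07 (SE 0.11), while Dock4 was lower by -2.66 (SE 0.11) and Rhog by -0.90 (SE 0.06). The other lists had 1 called higher and 6 lower of 9 for do not eat me signalling (Siglecg -2.49, SE 0.23, Cd24a -1.74, SE 0.07), 2 and 6 of 8 for find me receptors (Cx3cr1 -3.06, SE 0.22, and Gpr132 1.15, SE 0.05), 3 and 10 of 18 for corpse processing (Cybb -2.36, SE 0.10, and Ucp2 -1.53, SE 0.09), 3 and 8 of 12 for nuclear receptors (Pparg -5.10, SE 0.23) and 0 and 4 of 7 for shedding and chaperones (Timp3 -1.25, SE 0.17). Values in brackets are log2 changes.

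In the other comparisons the lists are given as counts, beside 87.3% of all tested genes called for BMDM and 84.3% for Hoxb8 macrophages against progenitor cells, 70.3% for Hoxb8 macrophages against BMDM and 2.62% for control-CAR against Hoxb8 macrophages. Against progenitor cells, 12 of 17 receptors were called higher and 3 lower in BMDM, and 11 higher and 2 lower in Hoxb8 macrophages. All 8 find me receptor genes were called higher in both, beside 46.6% of all tested genes in BMDM and 44.7% in Hoxb8 macrophages. Library totals moved the median of all genes by -0.64 in BMDM and -0.74 in Hoxb8 macrophages. In BMDM each find me receptor gene except P2ry2 had a log2 change larger than the size of that shift. In Hoxb8 macrophages all 8 did, the least being P2ry2 (0.94). P2ry2 was called higher in BMDM at a log2 change of 0.31, with a lower mean FPKM there (13.6 against 17.6). The bridging list had 9 of 10 called higher in BMDM and 7 in Hoxb8 macrophages, with 0 lower in either. Against BMDM, Hoxb8 macrophages had 2 bridging genes called higher and 8 lower, and 7 receptors called higher and 7 lower. Between control-CAR and Hoxb8 macrophages 4 genes of the 8 lists were called: Anxa1, Cd300lb and Vav3 higher and Ppard lower.

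By position, in build GRCm38.p6, the members lie on 7 chromosomes. Axl (gene ID 26362) spans 25756500 to 25788924 on chromosome 7, which also holds Mfge8 (17304, 79133768 to 79149060) and Dock1 (330662, 134670687 to 135173647). Chromosome 2 holds Mertk (17289, 128698915 to 128803162) and Tyro3 (22174, 119797740 to 119818104). Gas6 (14456) lies at 13465374 to 13494535 on chromosome 8, Lrp1 (16971) at 127538157 to 127621148 on chromosome 10, and Timd4 (276891) at 46810786 to 46844333 on chromosome 11. Elmo1 (140580) spans 20090507 to 20608353 on chromosome 13 and Pros1 (19128) 62854307 to 62929346 on chromosome 16. Axl, Pros1 and Dock1, which shared a pattern, are thus on 2 chromosomes, and Axl and Dock1 are far apart on theirs.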

How the data were processed

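Total RNA of the 15 libraries was selected with oligo(dT), per the labels' protocols. The submitters' processing notes name HISAT2, Bowtie2, RSEM 1.3.1, DESeq2 1.4.5 and the build GRCm38.p6. Which tool did what, and whether counting used the strand, is not stated there. The table deposited by the authors held, per the file headers, read counts, FPKM and TPM for each library. The deposited counts were taken as estimated counts, since 94.4% to 96.0% of the values per library were whole, and were rounded here. The FPKM and TPM values were scaled by the authors. FPKM was used for levels and TPM for an alternative only. The 15 columns of averages were not used, and 25 symbols turned into dates were restored from gene IDs.

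Genes at 1 FPKM or more in at least 3 libraries were tested (11793, with 5237 left out). edgeR 4.0.16 (R 4.3.3) fitted all 15 libraries with a mean per group and TMM factors of 0.824 to 1.47, and gave two-sided quasi-likelihood tests with 10 residual degrees of freedom and Benjamini-Hochberg adjustment over all tested genes. Calls were made under an adjusted p of 0.05. The SE is the log2 change divided by the square root of F. TMM takes most genes as unaltered, and each change is relative to that. A count of 0 was set to a floor of 3 counts per library for the least fold. The fit was tested on simulated data with known changes.

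Named genes were the 10 members, up to 4 called genes of each pathway list by largest log2 change in the 2 comparisons of CAR macrophages, and the 3 genes closest in pattern to a member. The members and lists were chosen with earlier results of these data known. Alternatives were library totals, upper quartile factors, DESeq2 1.42.0, limma 3.58.1 on log2(FPKM + 1), log2(FPKM + 0.1), log2(TPM + 1) and quantile-normalised values, no level filter, only the 2 groups compared, a replicate block and each library left out. Alternatives for pathway genes were added after seeing the data. Tulp1 and Siglech, 2 list genes, were not analysed here. Figures were drawn with matplotlib 3.10.9 (Python 3.11.15).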

Additional observations from a re-analysis of the deposited data

Results flagged for a closer look

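The change from progenitor cells differed between Hoxb8 macrophages and BMDM for 6 of the 8 tested members, by the direct edgeR test of Hoxb8 macrophages against BMDM, in which 70.3% of all tested genes were called. Under library totals, both FPKM scales and TPM 8 of the 8 were called lower. Because both changes share the progenitor libraries, that direct difference is the value given. Mfge8 had a difference of -4.42 on the log2 scale, being called lower than progenitor cells in Hoxb8 macrophages (-1.99) and higher in BMDM (2.43). Axl, called higher than progenitor cells in BMDM alone, had a difference of -6.84. The differences were -5.49 for Mertk and -0.68 for Lrp1, which were called higher than progenitor cells in both. Pros1 and Dock1, with a count of 0 in each Hoxb8 library, were lower there than in BMDM by at least 12.5-fold (Pros1) and 165-fold (Dock1). Markers of neutrophils and of T and B cells were also highest in BMDM, and their part in these differences was not tested.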

How the results depend on the processing

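Over 16 alternatives, 646 of 688 values of the members kept their direction and their side of the threshold, 18 lost the call, 9 gained one and 15 turned. For the named pathway genes 1012 values held, 4 lost the call and 8 turned. The 15 turned values belong to Elmo1, Mertk and Tyro3. Elmo1 was 0.21 under TPM for CAR against control-CAR macrophages. For Hoxb8 macrophages against BMDM it was -0.16 under library totals, -0.031 under upper quartile factors, -0.14 on log2(FPKM + 1), -0.15 on log2(FPKM + 0.1) and -0.31 under TPM, and from -0.034 to 0.089 without 1 library, with -0.034 and -0.018 without BMDM replicates 2 and 3. For control-CAR against Hoxb8 macrophages it was -0.0090 under upper quartile factors, -0.0037 in DESeq2, -0.015 after quantile normalisation, and from -0.018 to 0.016 without 1 library, with -0.018 and -0.011 without control-CAR replicate 3 and Hoxb8 replicate 1. After quantile normalisation Mertk was -0.20 and the pathway genes Megf10 -0.16, Edil3 -0.0047 and Calr 0.21 for CAR against control-CAR macrophages, and Tyro3 was 0.32 for Hoxb8 macrophages against BMDM. Calr was also 0.093 under library totals, 0.088 on both FPKM scales and 0.33 under TPM, and Pirb 0.11 under TPM.

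The FPKM, TPM and quantile alternatives change the test, from edgeR to limma, along with the scale. Library totals moved the median log2 change of all genes by 0.31 for CAR against control-CAR macrophages, 0.18 for CAR macrophages against BMDM, -0.17 for Hoxb8 macrophages against BMDM, -0.64 for BMDM against progenitor cells and -0.74 for Hoxb8 macrophages against progenitor cells. For CAR against control-CAR macrophages, genes called lower were 2770 under library totals and log2(FPKM + 1), 2766 under log2(FPKM + 0.1) and 1933 under TPM, where 8018 were higher. Members called lower were 0 under these 4 and 2 after quantile normalisation. TPM gave 3454 higher and 7271 lower for BMDM against progenitor cells, and 1815 and 7172 for Hoxb8 macrophages against BMDM, where quantile normalisation called 1 member higher. For Hoxb8 macrophages against progenitor cells, library totals, log2(FPKM + 1), log2(FPKM + 0.1) and TPM gave 3123, 3045, 3120 and 2544 genes higher and 7195, 7173, 7182 and 7848 lower. There 1 member was higher on log2(FPKM + 1) and under TPM, and 5 were lower after quantile normalisation. For control-CAR against Hoxb8 macrophages, genes called higher were 278 under library totals, 248 and 241 on the FPKM scales, 310 under TPM, 12 with these 2 groups only and 13 to 75 without 1 library. Genes called lower were 137 on log2(FPKM + 0.1), 147 under TPM, 85 with these 2 groups only and 93 to 241 without 1 library. Lrp1, the 1 member called lower there, was lost (0 members) on log2(FPKM + 0.1), under TPM, after quantile normalisation and without any 1 of the 6 libraries. The causes were not tested.

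The replicate numbers did not pair the libraries, since deviations of same-numbered libraries correlated between -0.144 and 0.031. With a replicate block, 4908 genes were called higher and 4296 lower for CAR against control-CAR macrophages, and no call of a named gene changed. Low counts limit the precision of Gas6 and Timd4 in every group, of Mertk outside BMDM and of Axl in Hoxb8 macrophages and progenitor cells.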
